A study of Homo sapiens with 8 samples.

Results

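The genes described here encode antioxidant enzymes and the carrier that supplies them with cystine, in normal human fibroblasts exposed to medium from fibroblasts at successive stages of oncogene-induced senescence. The genes were picked by symbol, and 10 of the 27696 genes in the count table carry those symbols: the superoxide dismutases SOD1, SOD2 and SOD3, heme oxygenase HMOX1, and 6 established targets of the transcription factor NRF2, namely NQO1, TXNRD1, GCLC, GCLM, SRXN1 and SLC7A11. All 10 passed the filter on low counts, as did 13798 genes in all. The recipient cells were IMR90, a line of primary human embryonic lung fibroblasts, and each group had spent 3 days in medium taken from IMR90 ER:RAS fibroblasts, in which 4-hydroxy-tamoxifen (4-OHT) switches on a RAS protein fused to the estrogen receptor and drives the cells into senescence. The groups are named after the day of 4-OHT induction of the donor cells, D0, D4, D7 and D10, and the comparison of each later day with D0 asks how recipient cells respond to the medium as donor senescence advances. D0 medium came from the same donor line at day 0 of induction, so the day of senescence and the time of the donor cells with 4-OHT cannot be told apart. Each group held 2 libraries, from 2 independent experiments (replicates 1 and 2), and the 8 libraries had total counts between 11708193 and 13395912.

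Superoxide dismutases turn superoxide into hydrogen peroxide: SOD1 works mainly in the cytosol, SOD2 in the mitochondrial matrix, and SOD3 is secreted and held in the extracellular matrix. NRF2, the product of NFE2L2, is kept low by KEAP1, which hands it to a ubiquitin ligase. Oxidants and electrophiles release it, and with small MAF proteins it binds antioxidant response elements and switches on genes for glutathione synthesis, thioredoxin recycling, quinone reduction and heme breakdown. SOD2 is also a well-known target of NF-kappaB, the transcription factor downstream of interleukin-1 and TNF receptors, and it is described apart from the NRF2 targets for that reason.

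Expression is given as CPM, the count of a gene scaled to an edgeR TMM-normalized library of 1000000 counts, and log2 fold changes come from edgeR's quasi-likelihood fit of all 8 libraries, with p-values adjusted by the Benjamini-Hochberg method over the 13798 genes and called at 0.05. Libraries of the same experiment deviated together, so the fit was repeated with the experiment as a replicate block, and its value is given where it changes a call. D4, D7 and D10 were all compared with the same 2 D0 libraries, so the 3 comparisons are not independent of each other. Recipient identity was checked on 4 marker lists. All 10 fibroblast markers were detected, with a summed level between 43026 and 58048 CPM in 7 libraries and 21216 CPM in D10 replicate 2, which therefore stood apart. The summed epithelial, endothelial and leukocyte markers stayed at or below 0.764, 3.74 and 3.02 CPM, respectively, in every library, and KRT5 and CD3E had no matching row. Whether the low fibroblast sum of D10 replicate 2 contributes to the D10 results was not tested, and the values of each member are given for both experiments. Cell composition, cell number and RNA content per cell cannot be told apart in such bulk libraries.

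SOD2 was higher in D10 medium, and it was the only member called by edgeR without the block in any of the 3 comparisons. With the block, HMOX1 and SOD3 were called as well, as given below. SOD2 (ENSG00000112096.16, GRCh38 chr6:159669057-159745186, minus strand) stood at 167.1 and 224.5 CPM in the D0 libraries of experiments 1 and 2, at 171.3 and 212.3 CPM at D4, at 302.8 and 279.5 CPM at D7, and at 849.6 and 1721 CPM at D10. The D4 libraries lay within the range of D0, both D7 libraries lay above it, and both D10 libraries lay above all the others. The group means ± SD (n = 2) were 195.8 ± 40.6 CPM at D0, 191.8 ± 28.9 CPM at D4, 291.2 ± 16.4 CPM at D7 and 1285 ± 616 CPM at D10. The D10 libraries differed from each other 2.025-fold, the widest gap between experiments for SOD2 in any group.

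At D10 the fitted log2 fold change of SOD2 against D0 was 2.71 (SE 0.38, 95% interval 1.83 to 3.60), a 6.56-fold rise with an adjusted p of 0.048 in edgeR's quasi-likelihood test. Of all genes tested, 0.196% were called higher at D10. The rise was 5.09-fold in experiment 1 and 7.66-fold in experiment 2. With the replicate block the change was 2.67 with an edgeR adjusted p of 0.00137, in a fit that called 2.54% of all genes higher. The call without the block is close to the threshold: it was lost when any library other than D10 replicate 1 was left out, with a change of 2.12 and an adjusted p of 0.0862 without D10 replicate 2, whereas without D10 replicate 1 the change was 3.15 and the adjusted p 0.00767.

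SOD2 was not called in either earlier medium. At D7 its level was 1.81-fold that of D0 in experiment 1 and 1.245-fold in experiment 2. The log2 fold change was -0.03 at D4 (95% interval -0.86 to 0.80) and 0.57 at D7 (95% interval -0.26 to 1.41), both with an edgeR adjusted p of 1, and at D7 the block gave 0.61 with an adjusted p of 0.435. At D7, SOD2 was nevertheless the only member whose libraries both lay above both D0 libraries, a separation that 13.7% of all genes tested showed in that direction. From D7 to D10 the level of SOD2 went up 2.81-fold in experiment 1 and 6.16-fold in experiment 2.

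**Figure D1:**
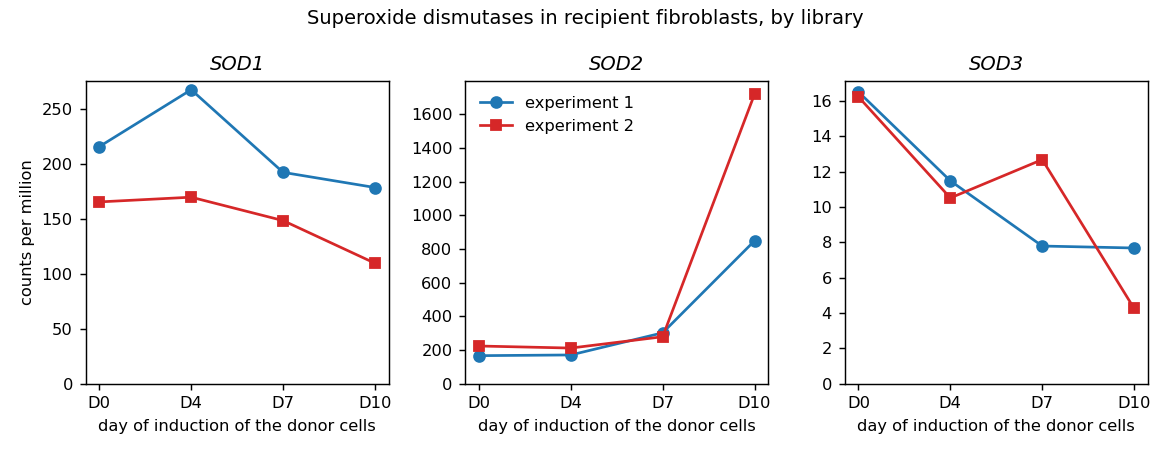
CPM (vertical axes, linear from 0, scaled separately) of the 3 superoxide dismutase genes against the day of induction of the donor cells, with 1 point per library and lines joining the libraries of an experiment. SOD2 goes from 167.1 and 224.5 CPM at D0 to 849.6 and 1721 CPM at D10, while SOD3 goes from 16.5 and 16.2 CPM to 7.68 and 4.26 CPM and the SOD1 groups overlap.

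The deposited counts are totals per gene and do not show which start site was used. RefSeq (GRCh38.p14) lists 4 SOD2 start sites with promoter windows, each 300 bases from 250 before to 50 after the start. The window below belongs to the start at chr6:159693241, inside the counted gene model, which runs on upstream to chr6:159745186. Only the 163 bases ahead of the annotated exons within that window (chr6:159693329-159693491, minus strand) are shown. SOD2 was chosen because it is the member called at D10 without the block. Capitals mark GC boxes, the letters GGGCGG on either strand, which the factor SP1 is known to bind.
SOD2: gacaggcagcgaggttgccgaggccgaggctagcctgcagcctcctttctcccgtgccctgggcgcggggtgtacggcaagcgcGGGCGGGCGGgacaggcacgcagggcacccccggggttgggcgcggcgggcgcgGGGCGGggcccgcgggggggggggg
The full window held 6 GC boxes, 3 of them within the stretch shown, with overlapping matches counted separately, and 45.0% of all 35116 RefSeq promoter windows held at least 1. The other SOD2 windows held 4, 1 and 1, so the window shown had the most. The letters GGANTTTCC, which form part of a common NF-kappaB site, occurred on either strand in 1.64% of all windows and in none of the 4 SOD2 windows, which says only that these letters are not in these windows. The antioxidant response element core TGACNNNGC was not in them either.

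SOD3, the extracellular enzyme, lay below D0 in every later medium, and SOD1 showed no separation. SOD3 (ENSG00000109610.5, chr4:24789912-24800842, plus strand) stood at 16.5 and 16.2 CPM at D0, 11.48 and 10.51 CPM at D4, 7.79 and 12.7 CPM at D7 and 7.68 and 4.26 CPM at D10. Every library from D4 on lay below both D0 libraries. The D10 log2 fold change was -1.45 (SE 0.36, 95% interval -2.29 to -0.62), and the edgeR adjusted p was 0.171 without the block and 0.0356 with it. DESeq2, fitted without a block, gave SOD3 at D10 an adjusted p of 0.027. It called 0.949% lower of the 17494 genes to which it gave an adjusted p at D10. In experiment 1 the D10 level was 46.5% of D0, and in experiment 2 it was 26.2%. At D4 and D7 the changes were -0.57 and -0.68, with edgeR adjusted p-values of 1, and 0.735 and 0.499 with the block.

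SOD1 (ENSG00000142168.14, chr21:31659622-31668931, plus strand), the abundant cytosolic enzyme, stood at 215.8 and 165.5 CPM at D0, 267.6 and 169.8 CPM at D4, 192.4 and 148.5 CPM at D7 and 178.6 and 109.7 CPM at D10. Experiment 2 was the lower in each group, and no group separated from D0. Its log2 fold change was 0.20 at D4, -0.16 at D7 and -0.40 at D10 (95% interval at D10 -1.18 to 0.38, edgeR adjusted p = 0.998). At D10 the level was 82.8% of D0 in experiment 1 and 66.3% in experiment 2. CCS, the copper chaperone that loads SOD1, and CAT, the catalase that removes the hydrogen peroxide made by dismutases, had D10 changes of -0.01 and -0.19. For CAT the D10 change was 0.04 within experiment 1 and -0.59 within experiment 2, the experiment of the library that stood apart.

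HMOX1 and several NRF2 targets lay below D0 in every later medium. Both libraries lay below both D0 libraries for 7 of the 10 members at D4 (SOD3, HMOX1, NQO1, TXNRD1, GCLM, SRXN1 and SLC7A11), where 12.6% of all genes tested did so, for 6 at D7 (all of these but SRXN1), against 15.2% of all genes, and for 5 at D10 (SOD3, HMOX1, NQO1, TXNRD1 and GCLM), against 16.0%. Those 5 were below D0 at all 3 times, as were 4.74% of all genes tested. The median log2 fold change of the 6 NRF2 targets was -0.65 at D4, -0.87 at D7 and -0.41 at D10, and over all genes tested it was 0.01, -0.0004 and 0.0037. Without SRXN1, which had few counts, the median of the targets was -0.66, -1.004 and -0.56. None of the 7 genes was called by edgeR without the block at any time, where that fit called 0.0% of all genes lower for either of the earlier media and 0.0942% for D10. At an unadjusted p under 0.05, edgeR placed 3 members lower at D4 (1.68% of all genes), 5 at D7 (2.44%) and 3 at D10 (3.94%).

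HMOX1 (ENSG00000100292.16, chr22:35380361-35394214, plus strand), which opens the heme ring and releases iron, carbon monoxide and biliverdin, stood at 23.3 and 27.4 CPM at D0. It stood at 14.2 and 9.54 CPM at D4, 8.71 and 8.73 CPM at D7 and 7.52 and 12.4 CPM at D10, all below D0. The log2 fold change was -1.09 at D4 (SE 0.32), -1.54 at D7 (SE 0.32, 95% interval -2.28 to -0.79) and -1.35 at D10 (SE 0.32, 95% interval -2.09 to -0.61). The edgeR adjusted p-values were 1, 0.31 and 0.149. With the replicate block they were 0.194, 0.0408 and 0.0262, so that HMOX1 fell at D7 and D10 in that fit. The block called 0.739% of all genes lower at D7 and 2.45% at D10. DESeq2, fitted without a block, gave adjusted p-values of 0.527, 0.0117 and 0.0225. Of the genes to which it gave an adjusted p, it called 0.406% lower at D7 (of 14272) and 0.949% at D10 (of 17494). Relative to D0 of the same experiment, HMOX1 was at 61.0% (experiment 1) and 34.9% (experiment 2) at D4, and the same values were 37.4% and 31.9% at D7 and then 32.3% and 45.3% at D10.

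NQO1 (ENSG00000181019.12, chr16:69706996-69726951, minus strand) reduces quinones by a pair of electrons and is among the most used reporters of NRF2 activity. Its level was 249.4 and 301.7 CPM at D0, 166.5 and 125.6 CPM at D4, 141.0 and 114.1 CPM at D7 and 141.8 and 195.4 CPM at D10, with no overlap between D0 and any later group. The log2 fold change was -0.92, -1.11 (SE 0.27, 95% interval -1.74 to -0.48) and -0.71 at D4, D7 and D10. At D7 the edgeR adjusted p was 0.43, and 0.0671 with the block, while DESeq2 called NQO1 at D7 with an adjusted p of 0.0465. A gene on the opposite strand, AC092115.2, covers 17.7% of the NQO1 exon bases, and whether reads were counted by strand is not given in the sources used here.

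TXNRD1 (ENSG00000198431.15, chr12:104215779-104350305, plus strand), the cytosolic thioredoxin reductase, stood at 653.8 and 812.6 CPM at D0, 431.5 and 495.6 CPM at D4, 481.4 and 397.5 CPM at D7 and 444.9 and 548.5 CPM at D10. All 6 later libraries lay below both D0 libraries, within a narrow band. The log2 fold change was -0.66 at D4, -0.74 at D7 (95% interval -1.34 to -0.14) and -0.56 at D10, with edgeR adjusted p-values of 1, 0.875 and 0.68, and at D10 the level was 68.1% and 67.5% of D0 in the 2 experiments.

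GCLM and GCLC are the modifier and the catalytic subunit of glutamate-cysteine ligase, which makes the first bond of glutathione, and only GCLM separated from D0. GCLM (ENSG00000023909.9, chr1:93885205-93909456, minus strand) stood at 38.3 and 54.9 CPM at D0, 27.5 and 32.1 CPM at D4, 25.4 and 21.0 CPM at D7 and 22.4 and 37.8 CPM at D10. Its later libraries all lay below D0, narrowly so for D10 replicate 2. The log2 fold change was -0.64, -1.004 (SE 0.31, 95% interval -1.72 to -0.29, edgeR adjusted p = 0.693, with the block 0.111) and -0.63. GCLC (ENSG00000001084.10, chr6:53497341-53616970, minus strand) stood at 55.1 and 53.2 CPM at D0, 46.8 and 60.2 CPM at D4, 52.2 and 59.6 CPM at D7 and 54.6 and 38.2 CPM at D10. Its libraries overlapped D0 in every later group, and its log2 fold changes of -0.02, 0.05 and -0.22 had 95% intervals within 0.79 of 0 on the log2 scale. The difference between the subunits was not tested.

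SLC7A11 (ENSG00000151012.13, chr4:138164097-138242349, minus strand), the cystine carrier that feeds glutathione synthesis, showed the largest difference between experiments among the members at D0, D4 and D10. It stood at 100.8 CPM in experiment 1 and 273.8 CPM in experiment 2 at D0, at 45.3 and 86.9 CPM at D4, at 51.1 and 51.7 CPM at D7 and at 67.1 and 248.2 CPM at D10. Both experiments lay below their own D0 at D4 and D7, to 45.0% and 31.8% and then to 50.7% and 18.9%, and at D10 they were at 66.5% and 90.7%. From D7 to D10 the level went up 1.31-fold in experiment 1 and 4.80-fold in experiment 2. The log2 fold change was -1.50 at D4, -1.87 at D7 (SE 0.67, edgeR adjusted p = 0.91) and -0.25 at D10. With the block, which takes up the difference between experiments, the D7 change was -1.62 with an SE of 0.37 and an edgeR adjusted p of 0.0987. Within each experiment the D10 level lay below D0, and the blocked change was -0.32. In the fit without the block, the sign at D10 turned with the library left out: the change was -1.48 without D10 replicate 2, 0.42 without D10 replicate 1 and 0.64 without D0 replicate 2.

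SRXN1 (ENSG00000271303.1, chr20:646615-653370, minus strand), sulfiredoxin, which repairs overoxidized peroxiredoxins, cannot be judged from these counts. It had between 6 and 33 counts in a library, or 0.456 to 2.52 CPM, and another gene model on the same strand, AL121758.1, shares 85.0% of its exon bases, so that reads falling on both may not have been counted for it. At D7 it stood at 125.3% of D0 in experiment 1 and at 26.1% in experiment 2.

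**Figure D2:**
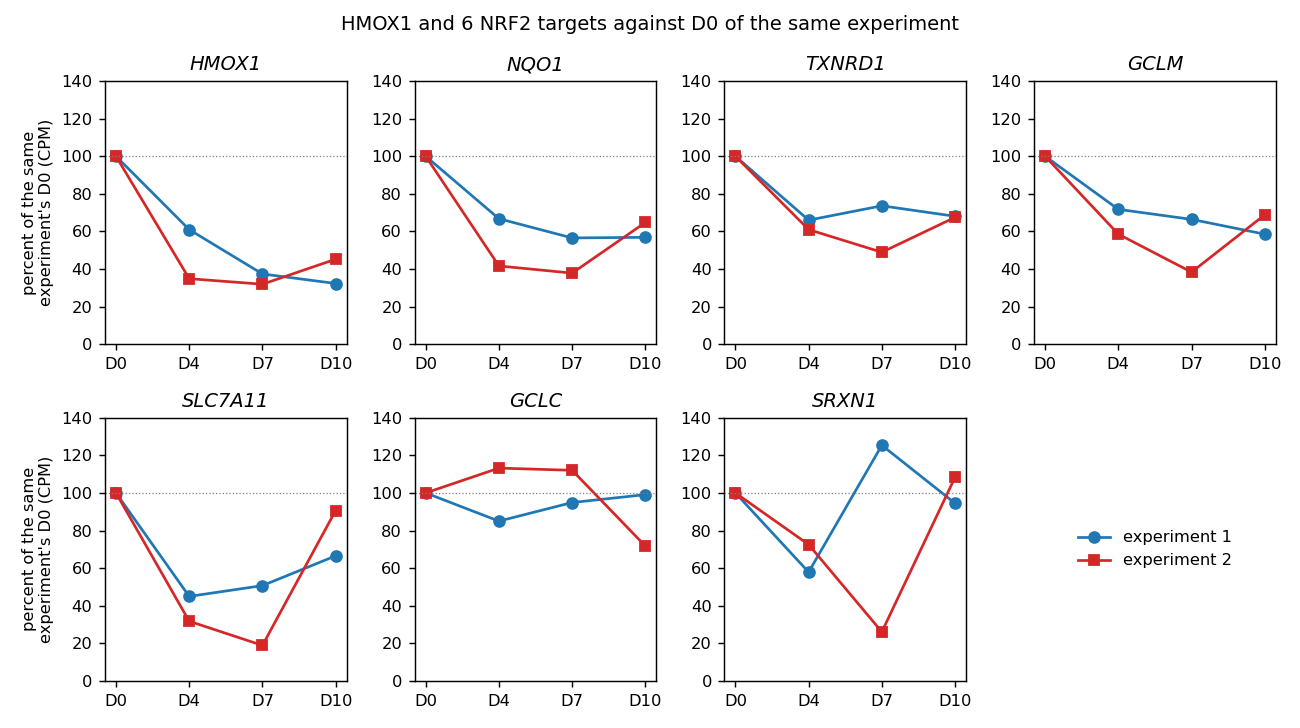
Level of HMOX1 and the 6 NRF2 targets as a percentage of the CPM in the D0 library of the same experiment (vertical axes, 0 to 140), against the day of induction, with 1 point per library. HMOX1, NQO1, TXNRD1 and GCLM lie below 100% at every later day in both experiments. SLC7A11 does so too and is at 90.7% at D10 in experiment 2, and the experiments part for GCLC and SRXN1.

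The order of the members by level per length, as mean CPM per kilobase of exon, differed between D0 and D10. At D0 it ran from TXNRD1 (109), SOD1 (94.4) and NQO1 (84.7) over SLC7A11 (19.42), SOD2 (11.87), HMOX1 (10.53), GCLM (8.60), SOD3 (7.69) and GCLC (6.26) to SRXN1 (0.696). Neighbours in that order overlapped in their 2 libraries, apart from NQO1 over SLC7A11, SOD3 over GCLC, and GCLC over SRXN1. At D10 SOD2 reached 77.9, beside TXNRD1 at 74.1 and SOD1 at 71.4, and the range of its 2 libraries took in both of those means. The annotated SOD2 exons add up to 16493 bases because of long annotated isoforms, and its level per length is lower for that than for a shorter transcript.

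**Figure D3:**
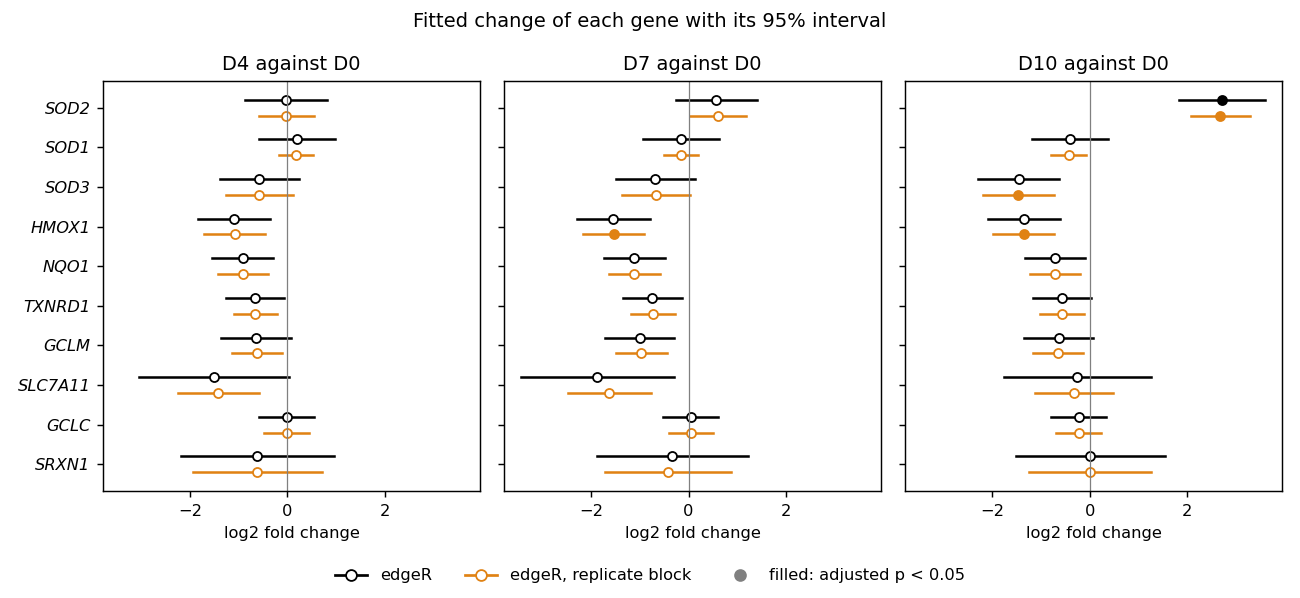
Log2 fold change of each member against D0 (horizontal axis) with its 95% interval, for D4, D7 and D10, from edgeR without (black) and with the replicate block (orange), where filled points have an adjusted p under 0.05. SOD2 at D10 is filled in both fits, at 2.71 and 2.67, and HMOX1 at D7 and D10 and SOD3 at D10 are filled in the blocked fit only.

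Across the 8 libraries, log2 CPM of HMOX1 and of the targets NQO1, TXNRD1 and GCLM ran in parallel, with Pearson's r of 0.934 for HMOX1 and NQO1, 0.917 for NQO1 and TXNRD1, and 0.947 for TXNRD1 and GCLM. SLC7A11 had r = 0.864 with GCLM and 0.596 with HMOX1, and GCLC had r between -0.324 and -0.102 with HMOX1, NQO1, TXNRD1 and GCLM. SOD2 had r = -0.0974 with NQO1 and -0.138 with TXNRD1, and r = -0.878 with SOD3. These values describe 8 libraries that share 4 media and 2 experiments, and no test was made on them.

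Of the members with RefSeq promoter windows, GCLM and TXNRD1 hold the antioxidant response element core in theirs. Whether the core bears on their levels in these libraries was not tested. The core is TGACNNNGC, searched on both strands, and 13.3% of all 35116 windows held it. It overlaps in part with the AP-1 site TGANTCA, which 7.71% of windows held and which neither gene's windows did. The stretches below, of 29 bases each, show each match in capitals between 10 flanking bases, in the direction of the gene. The GCLM match lies 34 bases before the start (chr1:93909446-93909474, minus strand), and TXNRD1 has a match 99 bases before its first listed start (chr12:104215670-104215698, plus strand) and another 102 bases before its second (chr12:104286920-104286948, plus strand). A further TXNRD1 match begins 8 bases before its first start.
GCLM: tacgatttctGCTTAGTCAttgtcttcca
TXNRD1, first start: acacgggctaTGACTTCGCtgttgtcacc
TXNRD1, second start: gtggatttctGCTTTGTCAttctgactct
The GCLM stretch and that of the second TXNRD1 start, both with the core on the opposite strand, are identical at 19 of 29 bases. The stretch of the match 8 bases before the first start, also with the core on the opposite strand, is identical to GCLM at 13 of 29. Both counts include the fixed letters of the core, which are the same because the stretches were picked by them. The match 99 bases before the first start is identical to GCLM at 4 of 29 bases. It holds the core in the other direction, so the cores are not aligned in that count, which says little about likeness. The GCLM stretch and that of the second TXNRD1 start overlap annotated exons of their own genes. RefSeq windows were matched for 7 of the 10 members, and NQO1, GCLC, SRXN1, SOD2 and SOD3 held no match to the core in theirs, which does not speak to elements farther away. Windows of SOD1, HMOX1 and SLC7A11 were not used here.

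Around these members, 86 other genes in 9 lists were examined, of which 80 were tested. Without the block, edgeR called 1 of them, NFKBIA, higher at D10, where 0.29% of all genes were called. With the block it called 2 of 80 at D4 (0.275% of all genes), 4 at D7 (1.25%) and 16 at D10 (4.99%), 10 of the latter higher and 6 lower. The median log2 fold change of the 80 was -0.06 at D4, -0.13 at D7 and -0.17 at D10.

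Among the regulators of NRF2, NFE2L2 itself stood at 197.7 and 218.9 CPM at D0, 118.0 and 147.4 CPM at D4, 124.4 and 154.8 CPM at D7 and 138.7 and 151.5 CPM at D10. All 6 later libraries lay below D0, with log2 fold changes of -0.65, -0.58 and -0.52 and edgeR adjusted p-values of 1, 1 and 0.635. Of all genes tested, 4.74% lay below D0 at all 3 times. NFE2L2 was the only 1 of the 12 regulators to separate downwards at D4, D7 or D10, against 12.6%, 15.2% and 16.0% of all genes. The median log2 fold changes of the 12 regulators were 0.02, -0.02 and 0.20. The adaptor KEAP1 and its ligase partner CUL3 had changes between -0.09 and 0.02 at every time. BACH1, a repressor that competes with NRF2 at HMOX1, had changes of 0.15, 0.26 and 0.24. MAFF, a small MAF protein, stood at 37.3 and 37.8 CPM at D0 and at 82.8 and 102.1 CPM at D10, with a D10 change of 1.30 and an edgeR adjusted p of 0.0693, and 0.00439 with the block. NFE2L1, a relative of NRF2, had a D10 change of 0.53 (edgeR adjusted p = 0.74).

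Other NRF2 targets ran from lower to higher within the list, and both libraries lay below both D0 libraries for 6, 10 and 7 of the 14 tested at D4, D7 and D10, against 12.6%, 15.2% and 16.0% of all genes tested, with medians of -0.54, -0.53 and -0.48. AKR1C1, an aldo-keto reductase, stood at 43.7 and 24.0 CPM at D0 and at 17.5 and 9.17 CPM at D4, 16.0 and 9.87 CPM at D7 and 25.8 and 9.94 CPM at D10, and each experiment lay below its own D0. Its log2 fold changes were -1.34, -1.39 and -0.92, and it was called in the blocked fit only (edgeR adjusted p = 0.0367, 0.019 and 0.021), and its close paralogs AKR1C2 and AKR1C3 can share reads with it. EPHX1, microsomal epoxide hydrolase, fell in the blocked fit at D7 by 0.83 and at D10 by 0.89 on the log2 scale (edgeR adjusted p = 0.039 and 0.0118), with D10 changes of -1.02 and -0.76 within experiments 1 and 2. AKR1B1, aldose reductase, differed from these: it went from 336.3 and 262.6 CPM at D0 to 1404 and 802.9 CPM at D10, with a change of 1.88 and an edgeR adjusted p of 0.144, and 0.00229 with the block. ABCC3, an efflux pump, had a D10 change of 1.26 (edgeR adjusted p = 0.865) and reached 69.7 CPM in D10 replicate 2 against 14.7 CPM in D10 replicate 1.

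Of the 8 heme and iron genes, SLC40A1, the iron exporter ferroportin and itself a known NRF2 target, showed the largest differences. It stood at 15.7 and 33.3 CPM at D0, 6.21 and 7.98 CPM at D4, 5.88 and 6.30 CPM at D7 and 7.28 and 11.6 CPM at D10, with every later library below D0. The log2 fold changes were -1.79, -2.01 and -1.38, with edgeR adjusted p-values of 0.757, 0.307 and 0.276, and 0.0371, 0.0157 and 0.0171 with the block. The ferritin chains that store iron parted at D10: FTL, the light chain, had changes of -0.55, -0.97 and -0.52, and FTH1, the heavy chain, had -0.72, -0.79 and 0.54, none of them called. BLVRB, a biliverdin reductase, had a D10 change of -0.56 (edgeR adjusted p = 0.887).

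Of the 6 genes that supply NADPH, the reductant used by TXNRD1 and glutathione reductase, 2 at D4, 6 at D7 and 4 at D10 had both libraries below both D0 libraries, against the same 12.6%, 15.2% and 16.0% of all genes, with medians of -0.32, -0.49 and -0.43. IDH1, cytosolic isocitrate dehydrogenase, stood at 155.6 and 177.2 CPM at D0 and at 95.4 and 98.6 CPM at D10, and fell at D10 in the blocked fit by 0.78 on the log2 scale (edgeR adjusted p = 0.044, and 0.298 without the block). PGD, which makes NADPH in the pentose phosphate pathway, overlapped D0 at D10, with 318.1 and 292.0 CPM at D0 and 272.9 and 386.3 CPM at D10.

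Glutathione genes had medians near 0, at -0.0010, -0.13 and -0.16, and none of the 16 was called without the block. With it, 3 rose at D10: CHAC1, which degrades glutathione and is known as a stress-response gene (change 1.95 without the block, edgeR adjusted p = 0.0813, and 0.0123 with it), GSTO1, an omega-class transferase (0.89, 0.435, and 0.0242 with it), and GGT5 (2.82, 0.136, and 0.0256 with it), which stayed at or below 5.86 CPM. Within experiments 1 and 2 the D10 change was 1.28 and 2.49 for CHAC1, 0.63 and 1.21 for GSTO1, and 2.48 and 2.75 for GGT5. SLC3A2, which forms the cystine carrier together with SLC7A11, resembled it in pattern: it stood at 154.9 and 187.0 CPM at D0, 71.5 and 57.2 CPM at D7 and 77.6 and 201.9 CPM at D10, and was chosen for mention after its values were seen. Of the 12 thioredoxin and peroxiredoxin genes, 1 was called in the blocked fit, PRDX6, which fell at D10 by 0.91 on the log2 scale (edgeR adjusted p = 0.0426, and 0.532 without the block), and PRDX1 had a D10 change of -0.55 (edgeR adjusted p = 0.987). Within experiments 1 and 2 the D10 change was -0.64 and -1.22 for PRDX6 and -0.39 and -0.81 for PRDX1, larger in the experiment of the library with the low fibroblast sum.

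Of 8 genes for oxidant-producing enzymes, 3 passed the filter and none was called, by edgeR with or without the block or by DESeq2. Of the 3, 1 gene, XDH, had an unadjusted edgeR p under 0.05, at D4, D7 and D10. The share of all genes higher at that threshold is not given here, so this count cannot be weighed against it. NOX4, the NADPH oxidase known from fibroblasts, stood between 0.801 and 1.53 CPM in all libraries, and XDH, xanthine dehydrogenase, went from 0.670 and 0.801 CPM at D0 to 2.53 and 2.37 CPM at D10, with a change of 1.72 and an edgeR adjusted p of 0.229.

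The 7 genes under NF-kappaB control, listed because SOD2 is among the targets of that factor, all stood above D0 in both experiments at D10, without overlap, a separation that 15.0% of all genes tested showed in that direction. Their median log2 fold change was -0.02 at D4, 0.48 at D7 and 1.30 at D10. NFKBIA, which encodes the inhibitor IkappaB-alpha, stood at 31.84 and 29.04 CPM at D0, 32.8 and 27.1 CPM at D4, 50.8 and 53.0 CPM at D7 and 107.7 and 102.9 CPM at D10. It rose at D10 by a log2 fold change of 1.79 (edgeR adjusted p = 0.0225, and 4.66e-04 with the block), and at D7 its change of 0.77 passed only in the blocked fit (edgeR adjusted p = 0.039). With the block, RELB (1.30), NFKB2 (0.94), NFKBIZ (2.67) and TNFAIP3 (3.40) also rose at D10, with edgeR adjusted p-values between 0.000806 and 0.0086. TNFAIP3, the ubiquitin editor A20, reached 22.8 CPM in experiment 1 and 163.8 CPM in experiment 2. NFKB1 had a D10 change of 0.24. The list shares its libraries with SOD2, and no test compared them.

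**Figure D4:**
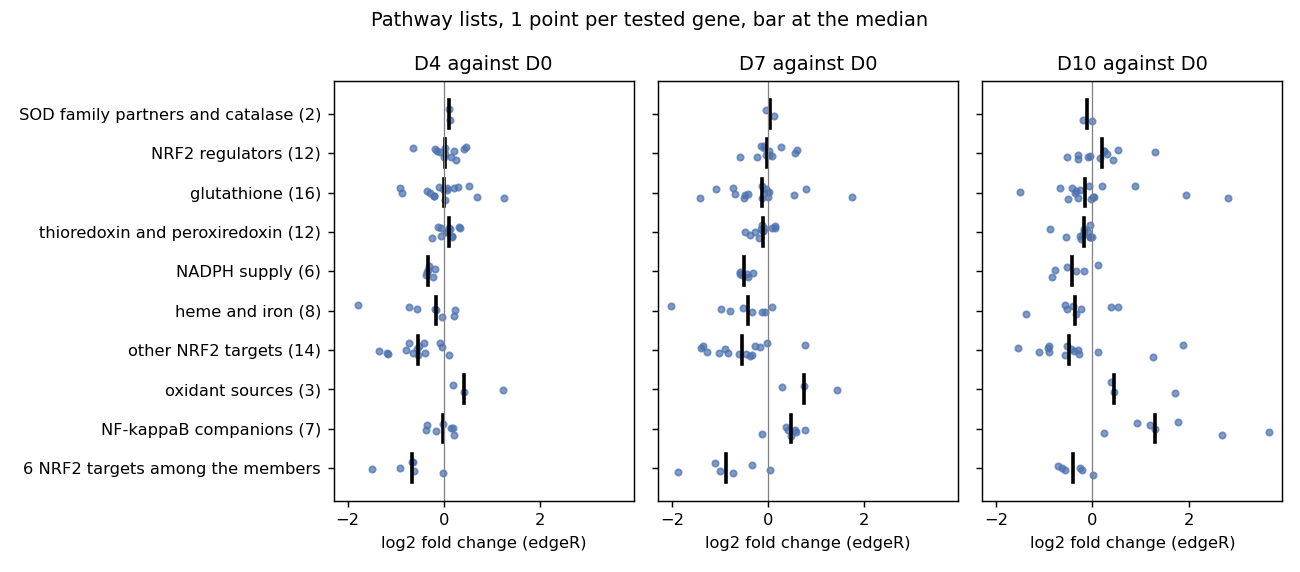
Log2 fold change against D0 (horizontal axis, edgeR without the block) of the tested genes of each list, with 1 point per gene, a bar at the list median and the number of tested genes in parentheses. The points of the NF-kappaB list lie around 0 at D4 and all above it at D10, where the median is 1.30, and the medians of the NADPH list, the other NRF2 targets and the 6 NRF2 targets among the members lie below 0 at all 3 times.

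**Figure D5:**
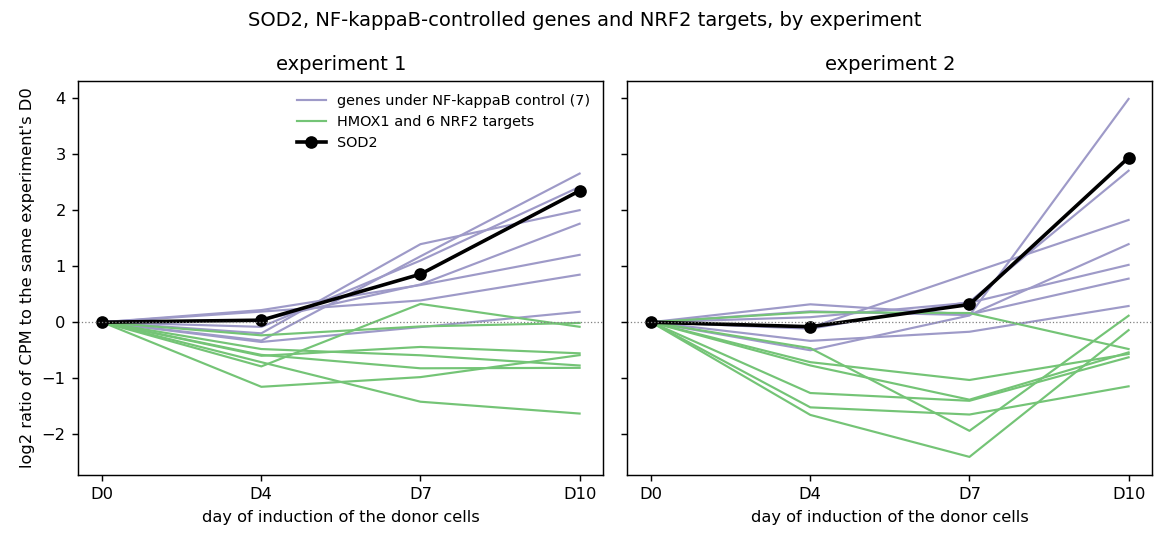
Log2 ratio of CPM to the D0 library of the same experiment (vertical axis) against the day of induction, in experiment 1 (left) and experiment 2 (right), for SOD2 (black), the 7 genes under NF-kappaB control (purple) and HMOX1 with the 6 NRF2 targets (green). SOD2 reaches 2.35 and 2.94 at D10 and lies among the NF-kappaB genes, whereas 5 of the 7 green lines lie below 0 at D4, D7 and D10 in both experiments.

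The genes whose log2 CPM followed SOD2 most closely over the 8 libraries were CXCL8, a neutrophil chemokine (Pearson's r = 0.991), ZC3H12A (0.990), RHBDF2 (0.990), TNFSF15 (0.989) and PEG10 (0.987). For HMOX1 they were TMEM237 (0.962), GGT7 (0.962), PRKRIP1 (0.956), KCNH2 (0.949) and XPO6 (0.948). For the mean of the 6 NRF2 targets they were NMRAL2P (0.980), DAAM1 (0.963), BMPR1B (0.960), CYP51A1 (0.950) and SYNPO2 (0.949), of which NMRAL2P had only 12 to 50 counts in a library. That mean gives SRXN1, which had few counts, the same weight as the other targets, and it was not repeated without SRXN1. These are the highest of 13798 values and carry no test.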

How the data were processed

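The RNA of IMR90 fibroblasts given conditioned medium (4 groups, 2 libraries each) had been poly(A)-selected and made into stranded libraries. The submitters' processing notes name STAR 2.5, DESeq2 and GRCh38, and the counter and its strand setting are not given in the sources used here. The table deposited by the authors holds raw read counts for each gene, with totals between 11708193 and 13395912 per library, and 8 normalized columns that were not used. The header of 1 count column reads DO and was taken as D0 replicate 1. All 27696 rows carry a gene identifier, and positions and exon lengths come from GENCODE 29, which holds 99.6% of them. The labels number the libraries of each group as replicates 1 and 2, and the study's methods describe 2 independent experiments. The replicate number was taken here as the experiment. Without the replicate block, the p-values rest on the spread between the libraries of a group. With it, they rest on the spread left once the difference between experiments is taken out.

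Genes were filtered with filterByExpr by group, which left 13798, scaled with TMM and fitted by group with edgeR 4.0.16 (glmQLFit and glmQLFTest, R 4.3.3) over all 8 libraries. Log2 CPM for correlations used a prior count of 2. The alternatives were a replicate block, DESeq2 1.42.0 and its size factors, unfiltered genes, a minimum of 10 counts in all libraries, only the compared groups, a threshold of 0.01 and the omission of each library in turn. The replicate numbers were taken to pair the libraries by experiment, which the labels do not state. In each of the 6 pairs of groups the libraries with the same number deviated together from the group means (r = 0.418 to 0.722, computed across genes, not across independent replicates). The common dispersion was 0.0792 without the block and 0.0243 with it. The scripts were tested on simulated data.

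The members and lists were chosen with earlier results of these data known, and the lists were written by hand. Genes named beside the 10 members are those of the 9 lists called at any time with or without the block, the 2 of each list with the largest D10 change among those with a mean of at least 1 CPM, and the 5 genes most like SOD2, HMOX1 and the mean of the 6 NRF2 targets. KEAP1, CUL3, NFE2L2, BACH1, NFKB1, FTL, FTH1, PGD and SLC3A2 were named after their values were seen. The result of 1 gene of the lists is not reported here.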

Additional observations from a re-analysis of the deposited data

How the results depend on the processing

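The D10 count of genes called, 40 in the reported fit, was 2 at an adjusted p under 0.01, 688 with the replicate block, 379 with DESeq2, 371 with no filter, 20 with at least 10 counts in every library and 0 with only the compared groups. It ranged from 0 to 155 with 1 library left out. The count of members called at D10 was 1, and it was 0, 3, 3, 3, 0 and 0 under the same 6 alternatives and ranged from 0 to 1 with 1 library left out. At D7 the count of genes was 0, against 172 with the block, 112 with DESeq2 and 93 with no filter, and that of members was 0, against 1, 2 and 1. At D4 the count of genes was 0, against 38, 44 and 21, and no member was called in any of the alternatives run. Where the blocked fit, DESeq2 and the fit without filter called more members, each added HMOX1 at D7 and HMOX1 and SOD3 at D10. DESeq2 also added NQO1 at D7, and the cause was not tested. SOD2 at D10 lost its call with at least 10 counts in every library (adjusted p = 0.0562) and with only the compared groups (0.166), at log2 fold changes of 2.72 and 2.73.

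Leaving out 1 library moved the SOD2 change at D10 between 2.12 and 3.15. It turned the sign of small changes: GCLC ranged from -0.21 to 0.15 at D4, from -0.0488 to 0.14 at D7 and from -0.49 to 0.0116 at D10, SOD1 from -0.17 to 0.49 at D4 and from -0.36 to 0.0407 at D7, SOD2 from -0.23 to 0.20 at D4, SRXN1 from -2.02 to 0.43 at D7 and from -0.0892 to 0.12 at D10, and SLC7A11 from -1.48 to 0.64 at D10. The other 21 of the 30 member changes kept their sign in every leave-one-out fit. DESeq2's size factors moved the median of all genes by no more than 0.02 on the log2 scale and changed no call of a member. Removing the experiment means left CXCL8 as the gene most like SOD2 (r = 0.995). At 2 libraries per group the 95% intervals of member changes in edgeR's fit without the block span at least 1.12 log2 units. With the block some are narrower, as for SOD1 at D4 (-0.18 to 0.52).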
